A study of Mus musculus with 8 samples.

Results

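Ribosomal RNA and miscellaneous RNA features were 138 of the 2403 features of a small RNA sequencing table made from immortalized mouse skin fibroblasts. They were chosen by the authors' type column alone: 28 rows were typed as ribosomal RNA and 110 as miscellaneous RNA. The table held 8 libraries in 4 groups of 2. The first 2 groups came from cells titled KO, with the genotype mir210lox/lox, kept for 24 hours in hypoxia (1% O2) or in normoxia (21% O2). The other 2 groups came from WT cells, with the genotype C57BL/6, kept for 24 hours in the same hypoxia or normoxia. All the cells were immortalized, and the labels used here name no recombinase and no number of lines or animals behind a genotype. The labels leave unsaid whether the pair of libraries in a group stems from separate cultures, and the p-values below cover only the spread between such libraries, which may be technical.

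Values were the authors' normalized read counts per feature, in whole numbers, and library totals ran from 8618630 to 12167438. The microRNA named in the KO genotype, as miR-210-3p, held 10 to 32 in the 4 KO libraries, against 36738 and 39011 in WT hypoxia and 4786 and 8676 in WT normoxia. The genotypes did not overlap. MicroRNAs typical of fibroblasts (7 listed) summed to 3642890 to 5615005 per library, while the lists for epithelial, endothelial, haematopoietic, muscle, neural and liver cells each summed to at most 3044. MicroRNAs made up 73.0% to 82.0% of a library.

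The 5S ribosomal RNA is a short RNA of the large ribosomal subunit, made by RNA polymerase III from many gene copies and accompanied in the genome by scattered pseudogenes. Miscellaneous RNA is an annotation class that gathers 7SK (which holds the elongation factor P-TEFb inactive), 7SL (the scaffold of the signal recognition particle), the RNA of RNase P (which trims transfer RNA precursors), telomerase RNA, vault RNA and their many genomic copies. Small RNA libraries select short molecules, so such features are read as fragments of longer RNAs, or as reads shared with a near copy.

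By sequence, 27 of the 28 ribosomal RNA features matched 5S ribosomal RNA (blastn, e-value of at most 1e-05) and 1, Gm23473, matched no reference RNA that was searched. Their lengths ran from 48 to 128 bases (median 117). Fragments of the 18S, 28S and 5.8S ribosomal RNAs were not analysed here. The sequence most often repeated among annotated 5S genes, here called the standard 5S, is that of 25 of the 180 n-R5s transcripts of the GENCODE vM21 annotation. No row analysed here held the standard sequence itself, and 13 of the 180 annotated n-R5s transcripts were among the rows. The sequence of n-R5s194, the most abundant row, is printed since it carries most counts, with 4 of the other leading rows to show how far such rows diverge from it. Capitals mark bases that differ from n-R5s194 or are inserted relative to it. All were read from the deposited table.
n-R5s194: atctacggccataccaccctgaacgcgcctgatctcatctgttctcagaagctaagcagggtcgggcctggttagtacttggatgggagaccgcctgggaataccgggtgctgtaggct
n-R5s169: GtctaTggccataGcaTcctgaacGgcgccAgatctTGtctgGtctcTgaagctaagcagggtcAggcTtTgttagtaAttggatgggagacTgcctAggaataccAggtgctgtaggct
Gm25365: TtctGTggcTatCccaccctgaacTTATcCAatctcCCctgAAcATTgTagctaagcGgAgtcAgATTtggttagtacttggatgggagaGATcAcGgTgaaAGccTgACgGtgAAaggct
n-R5s93: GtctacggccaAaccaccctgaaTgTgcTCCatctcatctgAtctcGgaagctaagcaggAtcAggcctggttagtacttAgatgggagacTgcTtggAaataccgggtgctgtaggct
n-R5s77: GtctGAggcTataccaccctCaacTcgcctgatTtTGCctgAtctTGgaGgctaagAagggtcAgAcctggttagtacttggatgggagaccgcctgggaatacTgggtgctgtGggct

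n-R5s194 lies at chr3:4338998-4339116 (GRCm38) on the plus strand and overlaps no other annotated gene. It was 95.8% identical to the standard 5S. n-R5s33, in an intron of Lrch3 on the same strand, was 96.6% identical to it. Of the 20-base words of n-R5s194, 62.0% also stood in the standard, against 51.0% for n-R5s33, 19.0% for n-R5s77 and less for n-R5s169, Gm25365 and n-R5s93. A read from a shared stretch cannot be told apart between a named copy and the standard 5S genes, so the values below belong to the row, not to transcription at its locus. The sources used here do not say how the authors placed reads that match several features.

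The other leading rows were more diverged. n-R5s93 (chr8:5069259-5069377, minus strand) was 89.9% identical to the standard, n-R5s169 (chr5:3561154-3561273, plus strand, in an intron of Fam133b) 87.5% and n-R5s77 (chr10:78314165-78314283, plus strand, opposite to an intron of Agpat3) 86.6%. Gm25365 (chr9:12780165-12780285, plus strand) was 69.4% identical. Over all 28 ribosomal RNA features, 11 overlapped no other gene, 17 lay within introns (12 of them with a host gene on the same strand) and none overlapped an exon.

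A single row carried the type. n-R5s194 held 95.1% of all ribosomal RNA counts (92.5% to 96.8% per library) and 2.46% of all counts in the table. The 6 leading rows held 99.9% of the type in each of the 8 libraries. Per length, n-R5s194 averaged 215047 normalized counts per 100 bases over the 8 libraries, n-R5s33 averaged 7257, n-R5s169 averaged 1497 and Gm25365 averaged 1343. n-R5s93 averaged 359 and n-R5s77 averaged 289 on the same scale. Of the 28 rows, 13 passed the filter for testing (a value of at least 10 in at least 2 libraries) and 15 did not, and 11 stood at 0 in at least 1 library.

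**Figure D1:**
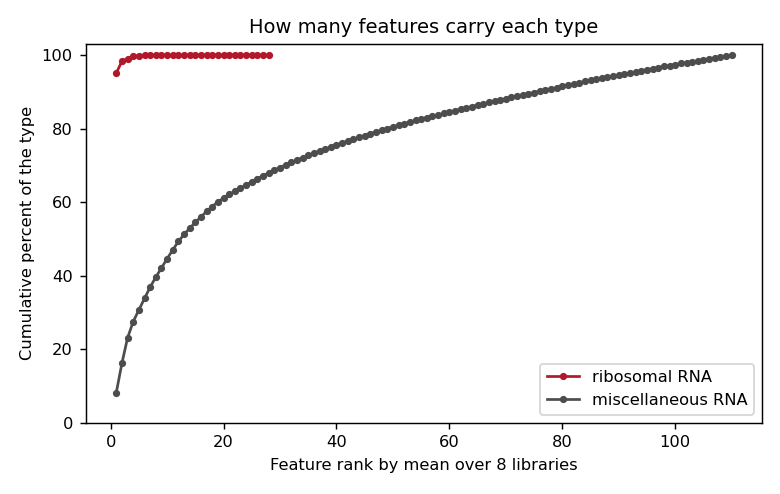
Cumulative percent of each type's counts (y axis) against feature rank by mean over the 8 libraries (x axis). For ribosomal RNA 1 feature passes 90%, while for miscellaneous RNA 13 features are needed for 50% and 76 for 90%.

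Summed ribosomal RNA counts took 5.76% and 2.59% of the library in KO hypoxia and 2.19% and 2.88% in KO normoxia. In WT hypoxia they took 1.88% and 1.97%, and in WT normoxia 2.05% and 1.69%. All 4 KO libraries lay above all 4 WT libraries, and KO hypoxia library 1 stood far above the other 7. The KO libraries averaged 3.36% ± 1.63 and the WT libraries 1.90% ± 0.154 (SD, n = 4 each). Without KO hypoxia library 1 the remaining 3 KO libraries averaged 2.56% ± 0.346 (SD). In a bulk sample, more cells with such fragments and more fragments per cell cannot be told apart, and a share moves with everything else in the library. KO hypoxia library 1 also had the lowest microRNA share, 73.0%. Leaving n-R5s194 out, the remaining 27 rows took 0.186% and 0.121% in KO hypoxia and 0.106% and 0.155% in KO normoxia, against 0.110% and 0.0923% in WT hypoxia and 0.119% and 0.126% in WT normoxia, and the genotypes overlapped.

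**Figure D2:**
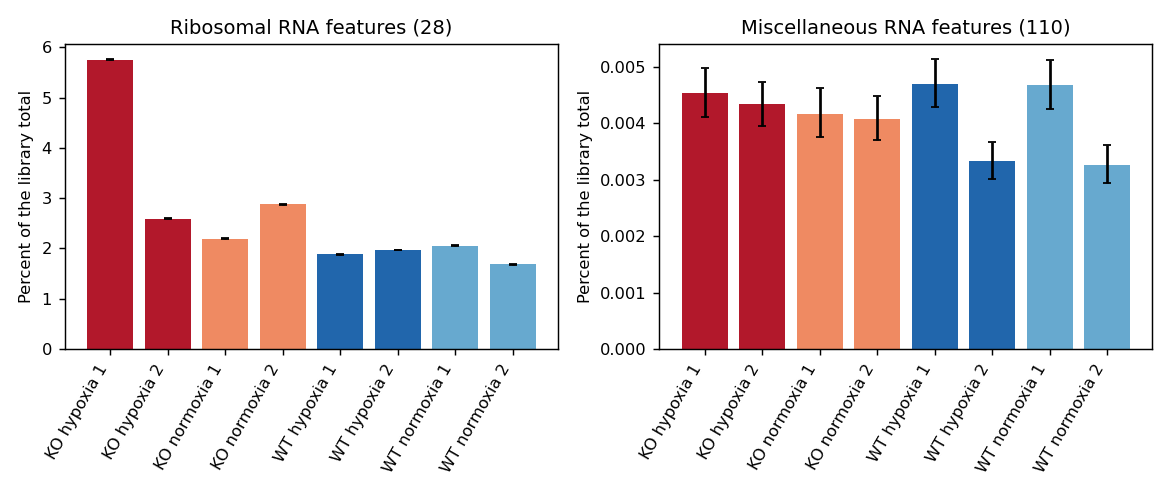
Summed ribosomal RNA features (left) and miscellaneous RNA features (right) as a percent of the library total, 1 bar per library, with 95% binomial intervals. The intervals take a normalized count as a read, so they approximate counting error, and they cover no other error. Ribosomal RNA stands at 2.19% to 5.76% in KO libraries and 1.69% to 2.05% in WT libraries, while the miscellaneous RNA bars of the genotypes overlap.

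As normalized counts, n-R5s194 held 538192 and 275372 in KO hypoxia and 179825 and 281624 in KO normoxia, against 175871 and 228101 in WT hypoxia and 189303 and 178962 in WT normoxia. KO hypoxia library 1 was 1.91 times the next highest library, and KO normoxia library 1 lay among the WT libraries. As a share of the library, n-R5s194 averaged 3.22% ± 1.60 in KO and 1.78% ± 0.162 in WT (SD, n = 4 each), and the genotypes did not overlap. On that share scale 3 of the 13 tested ribosomal RNA features (n-R5s194, n-R5s169 and Gm25365) stood higher in every KO library than in every WT library, or 23.1%, beside 9.42% of all 1540 features tested, and none stood lower, beside 2.21%. As normalized counts none of the 13 stood higher in this way, beside 8.38%, or lower, beside 3.51%, so this separation depended on the scale.

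n-R5s33, the nearest to the standard after n-R5s194 by shared words, did not follow it. Its normalized counts were 8791 and 8048 in KO hypoxia, 5731 and 10578 in KO normoxia, 7814 and 7409 in WT hypoxia and 8707 and 12011 in WT normoxia. Its highest library was WT normoxia library 2. In hypoxia the KO pair lay just above the WT pair, and in normoxia the genotypes overlapped. Per 1000 counts of n-R5s194, it ran from 16.3 in KO hypoxia library 1 to 67.1 in WT normoxia library 2.

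n-R5s169 held 4165 and 1848 in KO hypoxia and 1089 and 2956 in KO normoxia, against 939 and 1399 in WT hypoxia and 874 and 1105 in WT normoxia. Gm25365 held 3298 and 2306 in KO hypoxia and 1151 and 1770 in KO normoxia, against 1041 and 1382 in WT hypoxia and 1262 and 789 in WT normoxia. Both were highest in KO hypoxia library 1, and in hypoxia both KO libraries exceeded both WT libraries. n-R5s93 held 981 and 541 in KO hypoxia and 590 and 247 in KO normoxia, against 335 and 280 in WT hypoxia and 308 and 131 in WT normoxia. n-R5s77 went the other way in hypoxia, with 146 and 399 in KO against 589 and 526 in WT, and its values in normoxia were 373 and 149 in KO and 312 and 258 in WT. KO hypoxia library 1 was thus the lowest of the 8 libraries for n-R5s77 and the highest for n-R5s93.

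**Figure D3:**
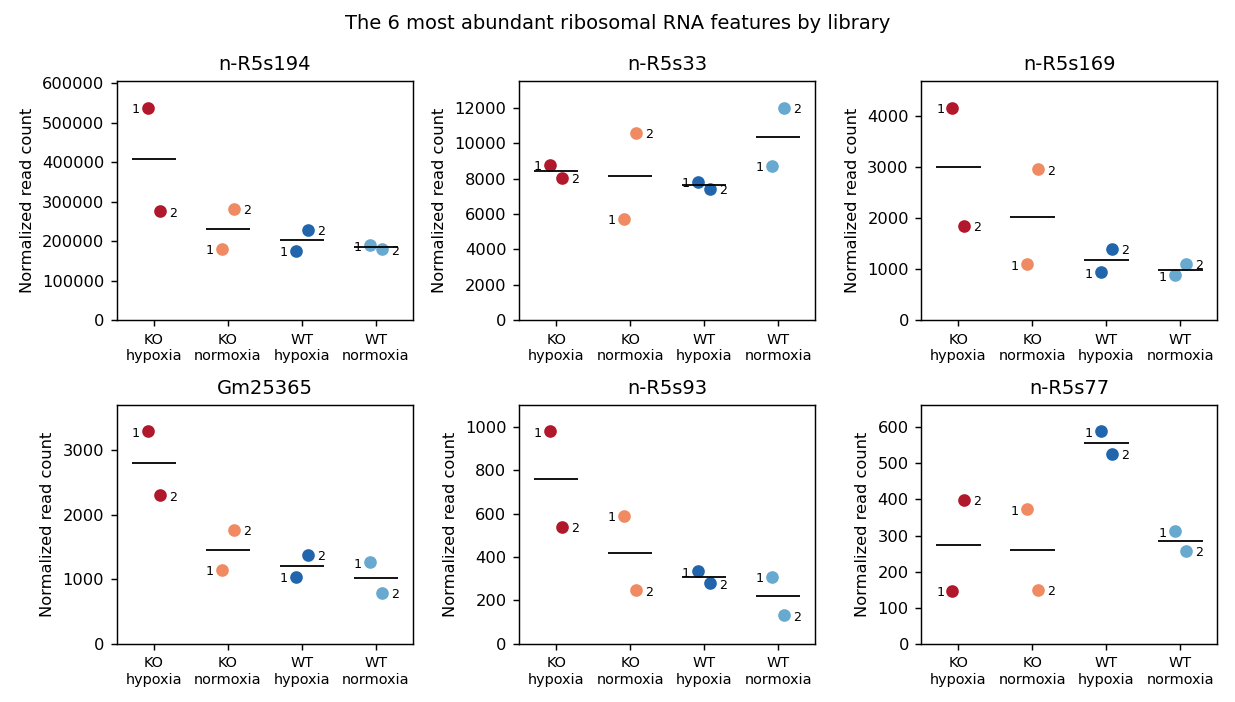
Normalized read count (linear y axes from 0, a scale per panel) of the 6 most abundant ribosomal RNA features in each library; numbers beside points are the library numbers and lines are means of 2. KO hypoxia library 1 is highest for n-R5s194, n-R5s169, Gm25365 and n-R5s93 and lowest for n-R5s77.

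The rows therefore moved as a group only in part. Relative to n-R5s194, the spread between the highest and lowest library was 1.68-fold for n-R5s19, 1.74-fold for Gm24786, 1.90-fold for Gm25365 and 2.27-fold for n-R5s169, although their own normalized counts spread 4.11-fold, 5.33-fold, 4.18-fold and 4.77-fold. For n-R5s77 the spread relative to n-R5s194 was 12.3-fold, wider than its own 4.03-fold. The same held for n-R5s174 (13.8-fold against 4.50-fold), Gm23473 (6.90-fold against 2.43-fold) and n-R5s33 (4.11-fold against 2.10-fold). In the remaining tested rows the spread relative to n-R5s194 was narrower than the row's own. KO hypoxia library 1 held the highest value for 8 of the 13 tested ribosomal RNA features (61.5%), against 1 of the 14 tested miscellaneous RNA features (7.14%) and 16.0% of all 1540 features. The 2 libraries of KO hypoxia differed over 2-fold for 5 of the 13, beside 13.4% of all features, against 3 of the 13 in KO normoxia (15.8% of all), 2 in WT hypoxia (13.2%) and 3 in WT normoxia (8.64%). What set KO hypoxia library 1 apart was not tested.

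The first question of the design was how KO cells compared with WT cells in hypoxia. No ribosomal or miscellaneous RNA feature passed the threshold (limma on log2(value + 1), Benjamini-Hochberg adjusted p under 0.05), beside 0.130% of all 1540 features tested. At an unadjusted p under 0.05, limma placed 7 of the 13 ribosomal RNA features higher in KO, beside 7.14% of all features, and 1 lower, beside 1.88%. The KO and WT libraries did not overlap for 10 of the 13, with 9 higher in KO, beside 19.2% of all features, and 1 lower, beside 16.6%. The median log2 difference over the 13 was 1.01, against -0.04 over all features. For n-R5s194 the log2 difference was 0.94 ± 0.37 (SE; 95% interval 0.11 to 1.77; limma adjusted p = 0.545). The 3 with the smallest p were Gm25365, at 1.20 ± 0.35 (adjusted p = 0.493), Gm24786, at 1.47 ± 0.50 (adjusted p = 0.493), and Gm24222, at 1.64 ± 0.58 (adjusted p = 0.494). All 3 are 5S-like rows, 2 of them in no other gene and Gm24786 in an intron of Pag1. n-R5s77 had a difference of -1.20 ± 0.52 (adjusted p = 0.545) and n-R5s33 one of 0.14 ± 0.33.

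The size of these differences depended on 1 library. Their direction did not: 10 of the 13 were higher in KO both with and without KO hypoxia library 1. Gm24222 held 240 and 94 in KO hypoxia against 28 and 80 in WT hypoxia, and Gm24786 held 112 and 57 against 21 and 38. In both rows the lower KO value lay nearer to the WT values than to the other KO value. Without KO hypoxia library 1, the median of the 13 was 0.61 and n-R5s194 stood at 0.46 ± 0.38. Gm25365 was then at 0.94 ± 0.43 and Gm24222 at 0.97 ± 0.63. The lone KO hypoxia library was assumed to vary like the other groups, so only effect sizes are given for this fit.

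In normoxia, KO against WT, none of the 27 tested rows passed, beside 0.0649% of all features, and none had an unadjusted p under 0.05 by limma, beside 8.64% of all features higher and 4.81% lower. The ribosomal RNA median was 0.52 and 11 of the 13 were higher in KO, against a median of -0.06 over all features. n-R5s194 differed by 0.29 ± 0.37 on the log2 scale (adjusted p = 0.804). The smallest p belonged to n-R5s95, in an intron of Fam155a, which held 51 and 34 in KO against 25 and 24 in WT (0.74 ± 0.38, limma adjusted p = 0.435). The groups did not overlap there, as in 3 of the 13 ribosomal RNA features, beside 21.9% of all features. Averaged over both oxygen levels, 7 of the 13 were higher in KO at an unadjusted p under 0.05, beside 12.3% of all features, none was lower, beside 5.45%, and none passed after adjustment by limma, beside 0.130%. Scaled to microRNAs, 2 of the 13 passed (Gm25365 and n-R5s169, the lower adjusted p at 0.0420). With the replicate numbers as a block in limma, 1 passed (n-R5s93, adjusted p = 0.0206), though what a number marks is not stated. Both changes also raised the number of calls over all features, as counted below, so the rise was not particular to these rows. In the main fit, without these changes, Gm25365 stood at 0.86 ± 0.25 (adjusted p = 0.144) and n-R5s95 at 0.88 ± 0.27 (adjusted p = 0.146). There n-R5s93 stood at 1.09 ± 0.36 (adjusted p = 0.161) and n-R5s194 at 0.62 ± 0.26 (adjusted p = 0.256). Without KO hypoxia library 1, the median over the 13 was 0.42 in place of 0.65, with 10 of the 13 higher in KO. Gm25365 then stood at 0.73 and n-R5s95 at 0.77.

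**Figure D4:**
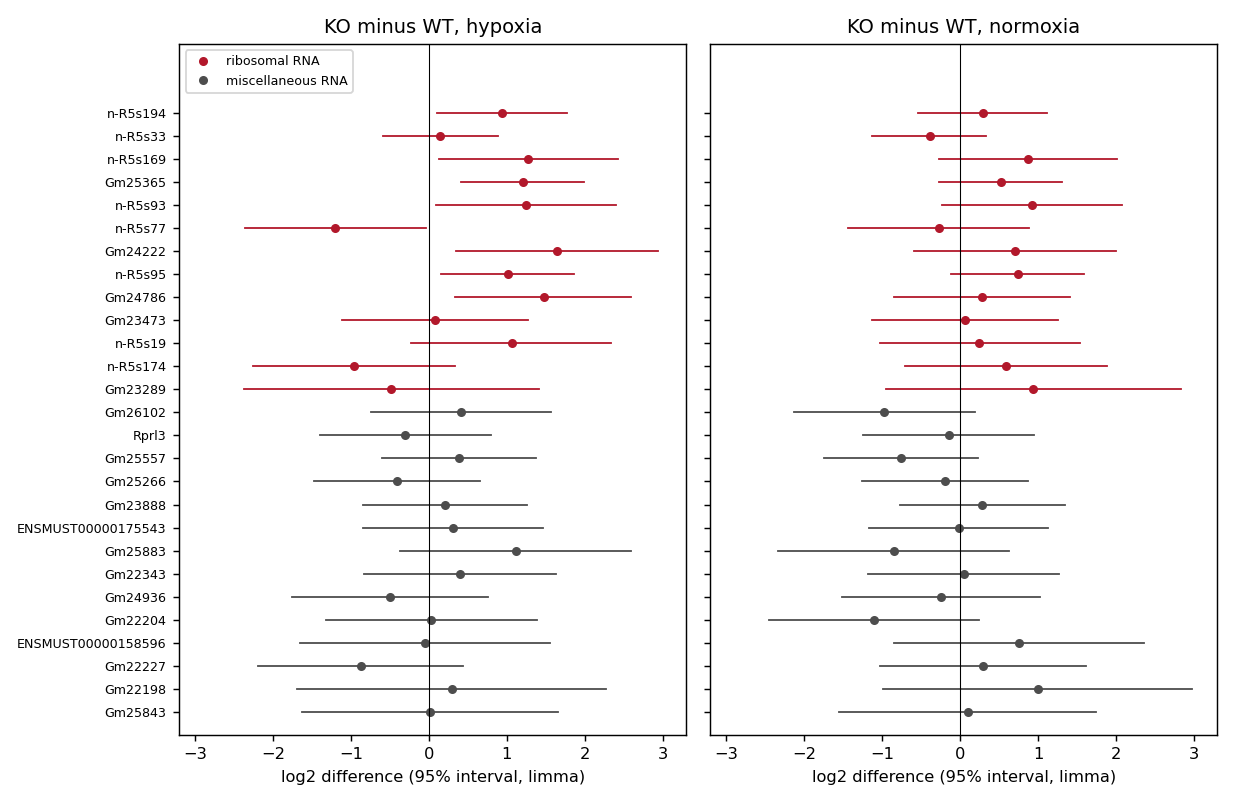
The log2 difference, KO minus WT, of each tested feature in hypoxia (left) and normoxia (right), with 95% intervals from limma; ribosomal RNA in red, miscellaneous RNA in grey, each sorted by mean. In hypoxia 8 ribosomal RNA intervals miss 0 before adjustment (7 higher in KO and n-R5s77 lower), and in normoxia none does.

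The second question was the response to low oxygen. In KO cells no tested row passed, nor did any of the 1540 features (0%), and at an unadjusted p under 0.05 limma placed 2 ribosomal and 3 miscellaneous RNA features higher in hypoxia, beside 2.47% of all, and none lower, beside 2.92%. n-R5s194 was at 0.77 ± 0.37 (limma adjusted p = 0.804), and at 0.29 without KO hypoxia library 1. In WT cells none passed (0% of all features), and none of the 27 had an unadjusted p under 0.05 by limma, beside 1.10% of all higher and 0.195% lower. n-R5s194 was at 0.12 ± 0.37. The smallest p in WT was that of n-R5s77, at 0.97 ± 0.52, with 589 and 526 in hypoxia against 312 and 258 in normoxia. Its groups did not overlap in WT, while in KO cells n-R5s77 was at 0.03 ± 0.52. Gm23289, at 1.21 ± 0.84 in WT, rested on values of 8 and 12 in hypoxia against 1 and 10 in normoxia. Over both genotypes none of the rows passed (0% of all), with 2 ribosomal and 1 miscellaneous RNA feature higher at an unadjusted p under 0.05, beside 2.34%, and none lower, beside 1.23%. These were n-R5s95, at 0.67 ± 0.27, Gm25365, at 0.61 ± 0.25, and the 7SK-like Gm22204, at 1.08 ± 0.43 (limma adjusted p = 0.975 for each). The difference between the KO and the WT response was not past the threshold for any of the 27, nor for any of the 1540 features (0%), and none of the 27 had an unadjusted p under 0.05 by limma, beside 0.909% of all above 0 and 1.49% below. n-R5s194 had an interaction of 0.65 ± 0.52 and n-R5s174, a 5S-like row of few counts, one of -1.55 ± 0.82 (limma adjusted p = 1.000).

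Miscellaneous RNA was a different case: many rows, each near the floor. The 110 rows summed to 438 and 483 in KO hypoxia and 359 and 421 in KO normoxia, against 467 and 405 in WT hypoxia and 459 and 375 in WT normoxia. These are 0.00327% to 0.00470% of a library, and the genotypes overlapped. The highest mean of any row was 35.0 and the highest single value 53. Of the 110, 99 averaged under 10, 74 stood at 0 in at least 1 library, and 14 passed the filter for testing, with 96 left out.

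By sequence, 81 of the 110 matched 7SK and held 74.2% of the type's counts, 17 matched 7SL (11.4%) and 5 matched RNase P RNA (9.92%). Telomerase RNA had 2 rows, vault RNA 1 and 4 had no match. A match is the best local hit and can cover a small part of a row, as 82 of 284 bases in Gm26102. Some rows were themselves references, so their family was given: Rprl3, with 8.01% of the type's counts, is 1 of them. Rn7sk, Rpph1 and Terc themselves were scarce. Rn7sk, the 7SK gene, held 1 and 3 in KO hypoxia and 2 and 0 in KO normoxia, against 1 and 1 in WT hypoxia and 2 and 6 in WT normoxia. Per 100 bases Rn7sk averaged 0.604, Rpph1 (the RNase P RNA) 0.705 and Terc (the telomerase RNA) 0.502, against 12.3 for Gm26102 and 11.8 for Rprl3, all as normalized counts over the 8 libraries. Most counts of this type thus stood on rows whose sequence differs from that of the parent gene. The first and second rows by mean and 1 further 7SK-like row are printed to show how far they stand from the parent. Capitals mark the longest run shared with Rn7sk (Gm26102 and Gm23888, 30 and 25 bases) or with Rpph1 (Rprl3, 37 bases). All were read from the deposited table.
Gm26102: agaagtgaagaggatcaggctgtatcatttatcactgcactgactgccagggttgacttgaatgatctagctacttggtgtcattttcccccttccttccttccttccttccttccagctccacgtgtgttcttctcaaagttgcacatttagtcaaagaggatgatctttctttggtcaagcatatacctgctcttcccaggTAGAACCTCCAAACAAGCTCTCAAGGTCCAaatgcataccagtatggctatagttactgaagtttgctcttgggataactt
Rprl3: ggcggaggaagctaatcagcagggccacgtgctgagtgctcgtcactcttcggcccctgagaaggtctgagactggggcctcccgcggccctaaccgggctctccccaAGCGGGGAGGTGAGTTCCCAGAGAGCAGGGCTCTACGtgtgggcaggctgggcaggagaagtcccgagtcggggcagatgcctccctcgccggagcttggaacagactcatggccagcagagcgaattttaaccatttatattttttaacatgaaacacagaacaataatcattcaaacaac
Gm23888: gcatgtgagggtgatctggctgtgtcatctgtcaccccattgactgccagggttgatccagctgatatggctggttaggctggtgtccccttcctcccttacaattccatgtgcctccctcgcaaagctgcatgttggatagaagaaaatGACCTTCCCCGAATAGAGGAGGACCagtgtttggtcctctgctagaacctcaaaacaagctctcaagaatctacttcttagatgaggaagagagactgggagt

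Gm26102 lies at chr8:4274853-4275136 on the plus strand, opposite to an intron of Timm44, which encodes a part of the mitochondrial import motor. It held 47 and 49 in KO hypoxia and 24 and 12 in KO normoxia, against 51 and 25 in WT hypoxia and 47 and 25 in WT normoxia. Its KO hypoxia libraries were both above its KO normoxia libraries, and its WT groups overlapped. Rprl3 (chr8:3803069-3803358, minus strand) held 27 and 31 in KO hypoxia and 19 and 53 in KO normoxia, against 37 and 35 in WT hypoxia and 39 and 32 in WT normoxia. Gm25557, 7SK-like on chromosome X, held 36 and 36 in KO hypoxia and 17 and 21 in KO normoxia, against 39 and 19 in WT hypoxia and 32 and 33 in WT normoxia. The WT hypoxia libraries of Gm25557 stood on either side of the WT normoxia pair.

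The 7SK-like Gm25266 held 21 and 12 in KO hypoxia and 14 and 21 in KO normoxia, against 22 and 21 in WT hypoxia and 23 and 17 in WT normoxia. Gm23888, also 7SK-like, held 15 and 13 in KO hypoxia and 18 and 13 in KO normoxia, against 13 and 11 in WT hypoxia and 14 and 11 in WT normoxia. The 7SL-like ENSMUST00000175543, which has no symbol in the annotation, held 19 and 12 in KO hypoxia and 11 and 15 in KO normoxia, against 9 and 16 in WT hypoxia and 13 and 13 in WT normoxia. In all 3 the 4 KO and the 4 WT libraries overlapped.

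By limma, KO against WT, none of the 14 tested miscellaneous RNA features passed in hypoxia, beside 0.130% of all features, or in normoxia, beside 0.0649%. None of the 14 had an unadjusted p under 0.05 by limma in either. Over all features the shares at that p were 7.14% higher and 1.88% lower in hypoxia. In normoxia they were 8.64% higher and 4.81% lower. The median log2 difference of the 14 was 0.12 in hypoxia and -0.08 in normoxia, beside -0.04 and -0.06 for all features. The hypoxia median was -0.17, with 6 of 14 higher in KO, without WT hypoxia library 1. It was -0.00 without WT hypoxia library 2, over the 13 features that then met the filter. The median in normoxia turned positive when libraries were scaled to their total (0.08) or to microRNAs (0.14), scalings that moved the median of all features to 0.10 and 0.17. In normoxia the smallest p belonged to Gm26102, at -0.97 ± 0.52 (adjusted p = 0.461), and Gm22204, at -1.10 ± 0.60 (adjusted p = 0.467). Leaving out 1 library moved Gm26102 between -1.44 (without KO normoxia library 1) and -0.50 (without KO normoxia library 2). The same omissions gave -0.39 and -1.81 for Gm22204.

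For hypoxia against normoxia in KO cells, the 3 smallest p all belonged to 7SK-like rows. Gm25883, opposite to an intron of Hsf2bp, held 15 and 34 in hypoxia against 3 and 9 in normoxia (log2 difference 1.90 ± 0.66). Gm22204, opposite to an intron of Xab2, held 12 and 17 against 2 and 7 (1.64 ± 0.60), and Gm26102 differed by 1.44 ± 0.52 (limma adjusted p = 0.804 for the 3). The groups did not overlap in any of the 3, which were picked by their p in this contrast. Of the 14 tested miscellaneous RNA features, 4 stood higher without overlap, beside 15.8% of all features, and 1 lower, beside 13.1%. In WT cells Gm25883 was at -0.06 ± 0.66 and Gm26102 at 0.06 ± 0.52, and the difference between the responses was 1.96 ± 0.93 and 1.38 ± 0.73 (limma adjusted p = 1.000). Gm22227, with 10 and 21 in WT hypoxia against 6 and 7 in WT normoxia, was at 1.06 ± 0.59 in WT (limma adjusted p = 1.00). At these counts a few reads make a log2 unit, and differences of this size did not pass the test.

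A pair of related groups were set beside these rows, since most small nucleolar RNAs guide the modification of ribosomal RNA and transfer RNAs share RNA polymerase III with 5S and 7SK. None of 376 small nucleolar RNAs and none of 413 transfer RNAs tested passed by limma in KO against WT. Small nucleolar RNAs had a median of -0.10 in hypoxia and -0.11 in normoxia, with an unadjusted p under 0.05 for 12 higher and 6 lower in hypoxia and for 13 higher and 0 lower in normoxia. Transfer RNAs had a median of 0.10 in hypoxia, with 28 higher and 13 lower, and of 0.35 in normoxia, with 80 higher and 1 lower. Over all features the shares at that p were 7.14% higher and 1.88% lower in hypoxia and 8.64% higher and 4.81% lower in normoxia. The ribosomal RNA medians of 1.01 and 0.52 lay above both, without a test of that difference. Scaled to microRNAs, the small nucleolar RNA medians turned to 0.05 and 0.13, while the ribosomal RNA medians were 1.16 and 0.75.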

How the data were processed

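Small RNA was sequenced from 8 libraries of mouse fibroblasts. Per the labels, miRNeasy RNA went into libraries of a NEBNext kit for SOLiD small RNA. The values, taken as a score, are read counts per feature that the authors normalized and rounded to whole numbers before they were deposited. How reads were aligned, counted and normalized is not stated in the sources used here. A step was estimated for each library (0.826 to 1.138), taking its low values as rounded multiples of that step. Totals over the step gave an estimate of 7573489 to 13482280 reads assigned. How well the step fitted was not checked. A count of 0 allows a share of up to about 2.47e-05% to 3.48e-05% (3 counts over the normalized total), for counting error only. This takes a normalized count as a read.

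limma 3.58.1 (R 4.3.3) was run, with its trend option, on log2(value + 1) of 1540 features with at least 10 in at least 2 libraries, with 4 group means (4 residual and 5.64 prior degrees of freedom) and Benjamini-Hochberg adjustment over all features, threshold 0.05. Fold changes on this scale understate low features. The fit was tested on simulated data, drawn independently per library with spreads shuffled over features. Those data hold no effect of a single library such as KO hypoxia library 1. Sequences and coordinates were matched to GENCODE vM21 (GRCm38). Of 138 members, 124 had a symbol there, and 120 equalled the annotated transcript in sequence and position. Families came from blastn 2.17.0, as the best local hit with no rule on how much of a row it covers.

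The members and lists were chosen with earlier results of these data known. Named in full were the 6 rows with the highest mean in each type and, in each of 7 contrasts, the 3 members with the smallest p where none passed. Alternatives changed the pseudocount, filter, scaling, trend, block, samples in the fit and library set. None was added later. The replicate numbers were not used as pairs in the main fit. Some sequences are not reported here.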

Additional observations from a re-analysis of the deposited data

How the results depend on the processing

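Counts of ribosomal and miscellaneous RNA features past the threshold (limma) were 0 in all 7 contrasts under the alternatives run, except in KO against WT over both oxygen levels. There, scaling to microRNAs gave 2 ribosomal RNA features (Gm25365, at 1.05 with adjusted p = 0.0478, and n-R5s169). The labels give groups the same numbers, and with the replicate block 1 feature passed (n-R5s93, at 1.09, adjusted p = 0.0206). Over all features that contrast gave 2 calls as reported, 13 with TMM factors, 73 scaled to the library total, 85 scaled to microRNAs and 91 with the replicate block. Leaving out 1 library gave 2 to 29, with 29 without WT hypoxia library 2 and 4 without KO hypoxia library 2. KO against WT in normoxia gave 1 call, 2 without the intensity trend and 1 to 2 on leaving out 1 library (2 without WT hypoxia library 2). Hypoxia against normoxia in WT gave 0, against 1 with a pseudocount of 8, 1 with a mean of at least 50 and 8 with the replicate block, and over both genotypes 0 against 3 with the replicate block. Deviations of same-numbered libraries correlated between groups with r of 0.15 to 0.55, with 2 numbers per group, and what a number marks is not stated, so the block does not replace the fit reported. The cause of these shifts was not tested.

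On leaving out 1 library, n-R5s194 ran from -0.03 (without KO normoxia library 2) to 0.61 in KO against WT in normoxia, and from 0.46 to 1.43 in hypoxia. Gm23289 ran from -0.02 (without WT normoxia library 1) to 2.44 in hypoxia against normoxia in WT. The log2 ratio of ribosomal RNA shares, KO over WT, was 1.12 in hypoxia (0.43 to 1.58 on leaving out 1 library) and 0.44 in normoxia (0.23 to 0.62). Without n-R5s194 the normoxia ratio was 0.09, and hypoxia over normoxia in WT was -0.28 in place of 0.04. Without Gm26102 the miscellaneous RNA ratio, hypoxia over normoxia in KO, was 0.02 in place of 0.11. Leaving out 1 library also turned the sign of small share ratios: ribosomal RNA, hypoxia over normoxia in WT, -0.09 to 0.19, and miscellaneous RNA in KO over WT in hypoxia (-0.08 to 0.42), KO over WT in normoxia (-0.18 to 0.33) and hypoxia over normoxia in WT (-0.26 to 0.29). Leaving out 1 library was followed for the share ratios, for the 3 members with the smallest p in each contrast and for n-R5s194. For n-R5s194 it covered KO against WT and the response of KO cells. Apart from the shifts given above, these kept their direction and, where tested, their side of the threshold. The ratio of ribosomal RNA shares, hypoxia over normoxia in KO, barely did so, at 0.03 to 1.18. Without KO hypoxia library 1 that comparison is 2.59% in KO hypoxia against a mean of 2.54% in KO normoxia. Small differences of other named rows could turn sign. For ENSMUST00000175543, hypoxia against normoxia in KO went from 0.22 to -0.09 without KO hypoxia library 1. Low counts limit the miscellaneous RNA rows most.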

Other observations

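Nearness in sequence to n-R5s194 did not order how closely a row followed it across the libraries. n-R5s33, 94.1% identical to n-R5s194 and with the longest shared run (55 bases), spread 4.11-fold in its ratio to it. n-R5s77, 84.0% identical with a run of 38 bases, spread 12.3-fold. Gm25365, 67.8% identical with a run of 22 bases, spread 1.90-fold, and Gm24786, 71.6% identical with a run of 13 bases, spread 1.74-fold. These are 4 of the 12 other tested ribosomal RNA features, chosen after their values were seen, and no test was made.

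Gm24447 on chromosome 15 is 100% identical to Rn7sk over 241 bases. Its normalized counts were 2 and 4 in KO hypoxia and 0 and 13 in KO normoxia, against 2 and 3 in WT hypoxia and 3 and 4 in WT normoxia. It was named after its values were seen.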
